A study of Mus musculus with 48 samples.

Results

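The 7 genes described here are the rows H2-Aa, H2-Ab1, H2-Eb1, H2-DMa, H2-DMb1, Cd74 and Ciita of a table of 30743 gene rows in mouse heart cells. They were chosen by name as the class II genes of the major histocompatibility complex (MHC) and their partners, and all 7 were found. Earlier results from these data were known when they were chosen, so the p-values below are descriptions of these libraries and carry no independent weight. Cardiomyocytes, the contractile cells of the heart, were isolated by collagenase digestion from mitochondrial-nuclear exchange (MNX) mice, which carry the nucleus of one inbred strain with the mitochondria of another, and from the parent strains C57BL/6J and C3H/HeN. Hearts were taken 3 days after a sham operation or after ACF (aortocaval fistula, a shunt that overloads the heart with volume), and 48 mRNA libraries were deposited.

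The libraries form 2 series. In the first, here called the sham-only series, 24 libraries labelled sham fall into 4 groups of 6: C57_WT (C57BL/6J nucleus and mitochondria), C57n-C3Hmt (C57BL/6J nucleus, C3H/HeN mitochondria), C3H_WT (C3H/HeN nucleus and mitochondria) and C3Hn-C57mt (C3H/HeN nucleus, C57BL/6J mitochondria). In the second, the surgery series, 24 libraries fall into 8 groups of 3, sham or ACF, with the titles C57_wt, C3H_wt, C57_MNX and C3H_MNX. The genotype tag of the C57_MNX libraries names a C3H nucleus and that of the C3H_MNX libraries a C57 nucleus, and the expression data go against those tags in the row H2-Ea-ps, so these 12 libraries are called by their titles. The labels do not name an animal for each library, so p-values measure only the spread between these libraries. Total counts ran from 15893595 to 20772473 in the surgery series and from 15967035 to 26085689 in the sham-only series.

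MHC class II molecules carry peptides from engulfed proteins to the surface of macrophages, dendritic cells and B cells, where CD4+ T cells read them. H2-Aa and H2-Ab1 encode the alpha and beta chain of the I-A molecule, H2-Eb1 the beta chain of I-E, Cd74 the invariant chain that fills the groove until the molecule reaches the endosome, and H2-DMa and H2-DMb1 the H2-M chains that exchange the invariant chain fragment for peptide. Ciita encodes the class II transactivator, the coactivator on which transcription of these genes depends, and it works through factors bound to the X and Y boxes of their promoters. In healthy heart these transcripts come mainly from resident macrophages and dendritic cells, not from myocytes. C57BL/6 mice carry the H2b haplotype and C3H mice the H2k haplotype, 2 versions of the complex that differ in the coding sequence of I-A and I-E. In H2b the alpha chain gene of I-E lacks its promoter, so that strain makes no I-E on the cell surface.

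The promoter sequences are shown because the X and Y boxes are the feature through which these genes are jointly controlled. RefSeq promoter windows (build GRCm38.p6, the C57BL/6J genome) matched 4 of the 7 genes by symbol, namely H2-Aa, H2-Eb1, H2-DMb1 and H2-DMa, the last with 2 start sites. Of each, the 250 bases before the start were searched on both strands for CCAAT, the Y box, and for a degenerate X box pattern of 14 bases. A further pattern of 11 bases, which overlaps the X box, was written after these sequences had been seen. The 150 bases before the start are printed 5′ to 3′ in the direction of the gene, with every match in capitals.
H2-Aa, chr17:34287824-34287973, minus strand: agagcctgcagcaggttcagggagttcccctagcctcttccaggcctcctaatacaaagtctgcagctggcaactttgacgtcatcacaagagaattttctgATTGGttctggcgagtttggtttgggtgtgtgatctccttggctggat
H2-Eb1, chr17:34305717-34305866, plus strand: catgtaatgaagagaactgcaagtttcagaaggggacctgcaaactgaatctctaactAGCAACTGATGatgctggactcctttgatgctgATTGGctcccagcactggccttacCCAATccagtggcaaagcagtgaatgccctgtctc
H2-DMb1, chr17:34153041-34153190, plus strand: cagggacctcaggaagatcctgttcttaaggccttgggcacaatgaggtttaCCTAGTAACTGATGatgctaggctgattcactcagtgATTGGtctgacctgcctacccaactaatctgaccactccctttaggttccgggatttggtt
All 3 held the Y box on the minus strand, with its first base 48 bases before the start in H2-Aa, 59 in H2-Eb1 and 61 in H2-DMb1, and H2-Eb1 held another on the plus strand at 35. The X box pattern was found in H2-DMb1 alone, beginning 98 bases before its start. An X box that departs from the pattern is missed, so the lack of a match does not mean that a promoter lacks the box. The pattern of 11 bases was found in H2-DMb1 and H2-Eb1, beginning 95 and 92 bases before the start. Of the 2 H2-DMa windows, 1 held no match and the other held CCAAT alone, on the minus strand at 198. Of 32851 promoter windows of the same length, 33.9% held CCAAT on either strand, 0.609% the X box pattern and 0.134% the pattern of 11 bases. The C3H sequence of these promoters was not used here.

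In the sham-only series all 7 genes passed the filter on low counts and 6 were lower with the C3H nucleus than with the C57 nucleus, with none higher. Over all 13395 genes tested, 35.7% were called in either direction and 16.8% were called lower at an adjusted p below 0.05 (edgeR's quasi-likelihood F test, adjusted by Benjamini and Hochberg over all genes tested, as for each adjusted p in the text unless another test is named). The median log2 fold change of the 7 genes was -1.88, beside 0.01 over all genes tested. Levels are given as CPM, a library's counts scaled to its total, and 1 gene's CPM is not compared with another's because transcript lengths differ.

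The I-A chains showed it as follows. H2-Aa stood at 12.1, 19.1 and 23.5 CPM (lowest, median and highest) in C57_WT and at 7.60, 10.5 and 12.8 CPM in C57n-C3Hmt. It stood at 1.51, 1.83 and 3.32 CPM in C3H_WT and at 1.19, 1.64 and 12.0 CPM in C3Hn-C57mt. Every library with a C57 nucleus lay at or above 7.60 CPM and every library with a C3H nucleus at or below 3.32 CPM, apart from 1, library 18 of C3Hn-C57mt. The log2 fold change of H2-Aa was -2.37 (SE 0.288, adjusted p = 2.38e-07, n = 12 in each group), a 5.17-fold lower level. H2-Ab1 stood between 5.42 and 22.7 CPM (median 8.69) with the C57 nucleus and between 0.435 and 8.10 CPM (median 0.890) with the C3H nucleus. Its log2 fold change was -2.74 (SE 0.335, adjusted p = 2.54e-07).

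For I-E, H2-Eb1 ranged from 6.56 to 18.9 CPM (median 12.2) with the C57 nucleus and from 0.844 to 8.24 CPM (median 1.09) with the C3H nucleus. Its log2 fold change was -2.76 (SE 0.304, adjusted p = 4.17e-08), the lowest adjusted p of the 7. H2-Eb1 transcript was thus higher with the nucleus of the strain that lacks I-E at the surface.

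Cd74, the invariant chain, ranged from 21.1 to 68.8 CPM (median 32.5) with the C57 nucleus and from 4.84 to 40.3 CPM (median 6.20) with the C3H nucleus. The log2 fold change was -1.88 (SE 0.290, adjusted p = 9.59e-06), and only library 18 of the C3H nucleus libraries, at 40.3 CPM, reached the C57 range. The H2-M chains were close to the limit of detection, with 1 to 68.8 counts a library. H2-DMa fell by 1.77 on the log2 scale (SE 0.253, adjusted p = 3.00e-06) and H2-DMb1 by 1.81 (SE 0.334, adjusted p = 0.000101).

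Ciita, the coactivator, was the one gene of the 7 that was not called. It stood at 0.335, 0.375 and 0.465 CPM in C57_WT (lowest, median, highest), at 0, 0.139 and 0.339 CPM in C57n-C3Hmt, at 0.0944, 0.219 and 0.377 CPM in C3H_WT and at 0.0469, 0.118 and 0.658 CPM in C3Hn-C57mt. These are 0 to 23 counts a library, and the ranges of the 2 nuclei overlapped. The log2 fold change with the C3H nucleus was -0.15 (SE 0.383, adjusted p = 0.797), with a 95% interval from -0.90 to 0.60. That interval does not reach the log2 fold changes of the other 6 genes, and whether Ciita and those genes changed by different amounts was not tested. The value is a mean over both mitochondria, and the signs differed. Ciita changed by -0.79 with C57 mitochondria (SE 0.479, adjusted p = 0.216, 95% interval -1.73 to 0.15). With C3H mitochondria it changed by 0.49 (SE 0.569, adjusted p = 0.614, 95% interval -0.62 to 1.61).

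**Figure D1:**
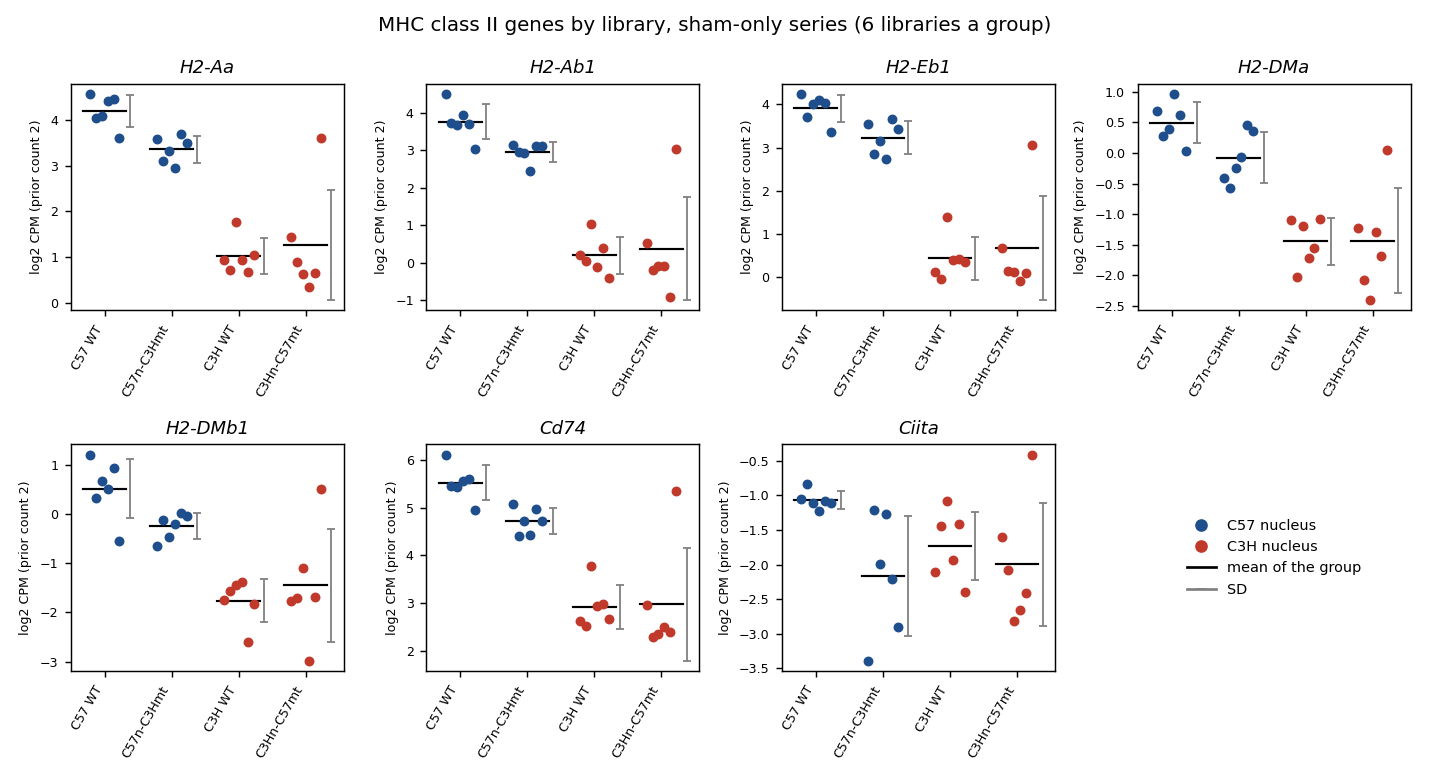
Levels of the 7 class II genes in the 24 libraries of the sham-only series, as log2 CPM (vertical axis, prior count 2) by group, with the mean of the 6 libraries as a line and the SD beside it. For every gene but Ciita the 12 libraries with a C57 nucleus (blue) lie above 11 of the 12 with a C3H nucleus (red), the exception being library 18 in C3Hn-C57mt.

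Library 18 stands apart, and the comparison was repeated without it. It held 419 counts of H2-Aa, where the other 5 libraries of C3Hn-C57mt held 31 to 79, and 1409 counts of Cd74, where the others held 107 to 230. No gene of the 7 had groups that did not overlap while it was included, beside 2.61% of all genes lower without overlap. Without it H2-Aa changed by -2.89, H2-Ab1 by -3.41, H2-Eb1 by -3.33, H2-DMa by -2.10, H2-DMb1 by -2.33 and Cd74 by -2.40 on the log2 scale, 6 called as before beside 34% of all genes, and Ciita no longer passed the filter. Its summed macrophage markers were 60.8 CPM, the highest of its group, where the other 5 ranged from 29.5 to 53.6 CPM. Its pan-leukocyte genes summed to 13.7 CPM (6.43 to 9.89 in the other 5). Its dendritic cell markers summed to 4.18 CPM (2.24 to 4.04 in the other 5), with a mean of -1.66 log2 CPM (-2.61 to -2.30 in the other 5). Apart from Zbtb46, the dendritic cell markers had medians of at most 4.5 counts in the sham-only series, close to the limit of detection. The part of these in its class II level was not tested.

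The difference was present on both mitochondria. With C57 mitochondria (C3Hn-C57mt minus C57_WT) 6 of the 7 genes were lower, beside 31.9% of all genes called and 16.0% called lower, and Cd74 changed by -2.01 (SE 0.407, adjusted p = 0.000421). With C3H mitochondria (C3H_WT minus C57n-C3Hmt) 6 of the 7 were lower, beside 19.4% called and 8.78% called lower, and Cd74 changed by -1.75 (SE 0.414, adjusted p = 0.00281). The nucleus by mitochondria interaction called 0 of the 7, with adjusted p from 0.404 to 0.993, and 0% of all genes. At an unadjusted p below 0.05 it gave 0 of the 7, beside 2188 of all genes, with 5.79% of those tested lower.

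Leukocyte content was read from marker genes, since in bulk libraries fewer cells of a type and less RNA per cell cannot be told apart. The myocyte genes Myh6, Tnnt2 and Ryr2 were abundant in every library, as the label says, and 14 macrophage markers, such as Csf1r, C1qa and Mrc1, were detected too. No marker of B cells (7) or of T and NK cells (8) passed the filter, with at most 25 counts of any of them in a library of the sham-only series, and of the 8 dendritic cell markers only Zbtb46 did. Over the nuclear comparison 7 of the 14 macrophage markers were lower with the C3H nucleus and 1 was higher (median log2 fold change -0.47). Their part in the class II result was not tested beyond the values given here. Their summed level ran from 45.8 to 145 CPM (median 70.4) with the C57 nucleus and from 29.5 to 151 CPM (median 53.6) with the C3H nucleus. Of 8 pan-leukocyte genes 4 were lower and 0 higher (median -0.51).

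The marker counts differed with the mitochondria. With C57 mitochondria 11 of 14 macrophage and 8 of 8 pan-leukocyte markers were lower with the C3H nucleus (medians -1.08 and -1.09). With C3H mitochondria 0 of 14 macrophage markers were lower and 1 was higher (median 0.18), and 0 of 8 pan-leukocyte markers were called (median 0.12), and H2-Aa changed by -2.34, H2-Ab1 by -2.77 and H2-Eb1 by -2.82. C3H_WT library 23 had summed macrophage markers of 151 CPM, and by library medians the sums were lower in C3H_WT than in C57n-C3Hmt, 56.4 against 63.9 CPM for macrophages and 10.4 against 11.9 CPM for the pan-leukocyte genes. Without library 23 the medians of the log2 fold changes turned to -0.22 and -0.26, with 0 of 14 and 0 of 8 lower, and H2-Aa changed by -2.26, H2-Ab1 by -2.79 and H2-Eb1 by -2.80. Over both mitochondria, 10 of 14 macrophage and 7 of 8 pan-leukocyte markers were lower without it. With the macrophage marker mean of each library as a term in the fit over all 24 libraries, 6 genes were called beside 26.7% of all genes, with log2 fold changes of -1.94 for H2-Aa, -2.22 for H2-Ab1, -2.28 for H2-Eb1, -1.46 for H2-DMa, -1.47 for H2-DMb1 and -1.41 for Cd74. The pan-leukocyte mean in its place gave 6 calls beside 22.5% of all genes, with Cd74 at -1.13 (SE 0.274, adjusted p = 0.00297).

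**Figure D2:**
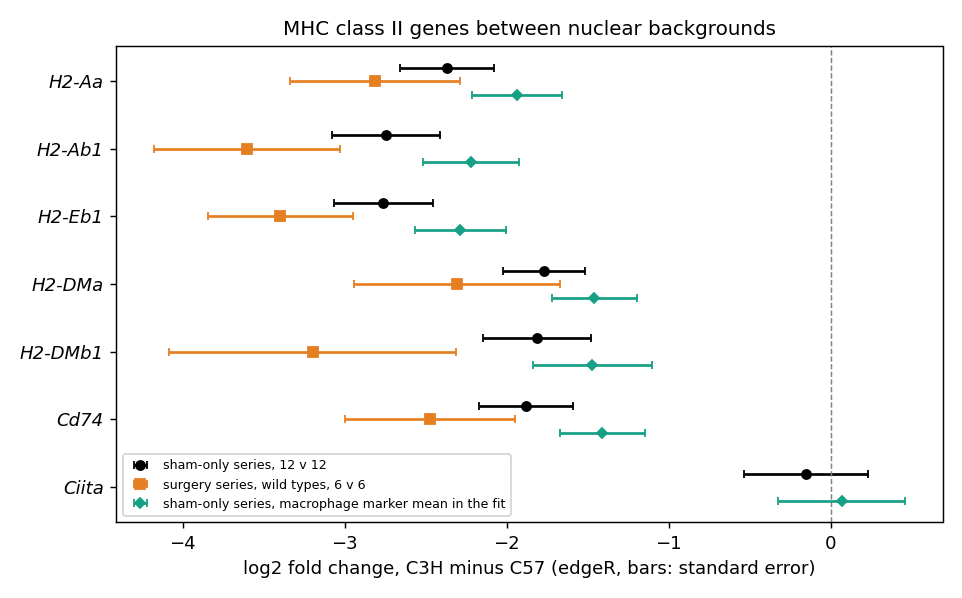
Log2 fold change of each class II gene, C3H minus C57 (horizontal axis), with standard errors as bars, for 12 against 12 libraries of the sham-only series (black), for 6 against 6 wild-type libraries of the surgery series (orange, Ciita not tested) and for the sham-only series with the macrophage marker mean in the fit (green). Of the 7 genes, 6 lie below -1 in each fit, and Ciita lies near 0 in the 2 fits that hold it.

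The titles also carry a code, L2, L3 or L8, whose meaning they do not give, and it runs with the nucleus: all 6 C57_WT libraries carry L8 and all 6 C3H_WT libraries L3. Within L2, the code shared by both nuclei, 4 C3Hn-C57mt libraries could be set against 4 C57n-C3Hmt libraries, which also differ in mitochondria. There all 4 of the first group lay below all 4 of the second for each gene but Ciita, at 4.84 to 7.68 CPM against 21.4 to 31.3 CPM for Cd74 and 1.19 to 2.64 CPM against 7.60 to 12.8 CPM for H2-Aa. The share of all genes that separated in this way within L2 was not computed, so the separation is given as a description only. The difference in mean log2 CPM was -2.18 for Cd74 and -2.52 for H2-Aa (exact permutation test, two-sided, p = 0.0286 for each of 6 genes, the smallest p that 4 against 4 allows, and p = 0.686 for Ciita, 7 tests). These p-values were not adjusted over the 7 tests. With the code as a term in the fit 6 genes were called, with log2 fold changes from -4.36 for H2-Eb1 to -3.18 for H2-DMa, beside 10.4% of all genes. That fit could set L3 against L2 only within C3Hn-C57mt, where 2 libraries carry L3, and L8 against L2 only within C57n-C3Hmt. Library 18, far above its group, carries L3 and was not among the L2 libraries. Its part in these log2 fold changes was not tested.

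The wild-type libraries of the surgery series gave the comparison a second time, with 6 C3H_wt libraries against 6 C57_wt libraries, 3 sham and 3 ACF in each. Ciita did not pass the filter, and the 6 genes tested were all lower in C3H_wt, beside 11.1% of 13440 genes called and 6.09% called lower. H2-Aa stood at 1.70, 0.591 and 1.21 CPM in C3H_wt_sham and at 0.992, 1.57 and 0.62 CPM in C3H_wt_ACF, against 6.09, 9.21 and 4.64 CPM in C57_wt_sham and 3.61, 19.6 and 3.91 CPM in C57_wt_ACF. No C3H_wt library reached the lowest C57_wt library, and H2-Aa changed by -2.81 (SE 0.523, adjusted p = 0.000946). H2-Ab1 changed by -3.60 (SE 0.573, adjusted p = 0.000190), H2-Eb1 by -3.40 (SE 0.448, adjusted p = 2.38e-05) and Cd74 by -2.47 (SE 0.524, adjusted p = 0.00320).

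Groups did not overlap for these 4 genes, beside 2.62% of all genes lower without overlap. The H2-M chains overlapped, and their calls depended on single libraries. H2-DMa changed by -2.31 (SE 0.635, adjusted p = 0.0221) and H2-DMb1 by -3.20 (SE 0.886, adjusted p = 0.0228), from 0 to 12 counts in all but 1 library. The exception is C57_wt_ACF library 489, with 42 counts of H2-DMa and 32.5 of H2-DMb1, and with summed macrophage markers of 381 CPM where the other 5 C57_wt libraries had 69.6 to 93.2 CPM. It stood further apart in other markers, with summed levels of 77584 CPM for erythrocytes (5.10 to 53.6 in the other 5), 228 CPM for pan-leukocyte genes (10.0 to 20.8), 80.0 CPM for neutrophils (1.64 to 3.68) and 13.2 CPM for B cells (0.263 to 0.871). Its summed myocyte markers were low, at 8967 CPM against 59960 to 80278 CPM, and the part of these in the result was not tested. Without it the calls fell to 4 beside 14.2% of all genes, with H2-Aa at -2.13, H2-Ab1 at -2.69, H2-Eb1 at -2.85 and Cd74 at -1.76, while H2-DMa (-1.41, adjusted p = 0.0931) and H2-DMb1 (-2.06, adjusted p = 0.120) were not called. Either call was also lost without C3H_wt_ACF library 470 or 486 or C3H_wt_sham library 483, and that of H2-DMa without C57_wt_sham library 467 and that of H2-DMb1 without C3H_wt_sham library 485.

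The macrophage markers ran the same way while library 489 was included, with 3 of 14 lower in C3H_wt and 0 higher (median -1.0). Without it 0 of 14 were called (median -0.32) and 0 of 8 pan-leukocyte markers (median -0.53). With the macrophage mean in the fit 4 genes were called beside 15.5% of all genes, Cd74 at -1.31 (SE 0.212, adjusted p = 0.000164), H2-Aa at -1.69, H2-Ab1 at -2.31 and H2-Eb1 at -2.58.

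H2-Ea-ps, the row of the I-E alpha chain, served as a check of the haplotype because its promoter is deleted in H2b. It held 2 or more counts in 23 of the 24 libraries with a C3H nucleus or title, at most 131 in library 18, and 0 in the remaining one, C3H_wt_ACF library 486. In the 24 libraries with a C57 nucleus or title it held 0 counts in 22 and at most 1 in the others. All 6 C57_MNX libraries, whose tag names a C3H nucleus, were at 0, and the 6 C3H_MNX libraries, whose tag names a C57 nucleus, held 2 to 18 counts. The row thus followed the title and not the tag in all 12 exchange libraries of the surgery series. Library 18, with its high class II level, was on the C3H side by this row.

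**Figure D3:**
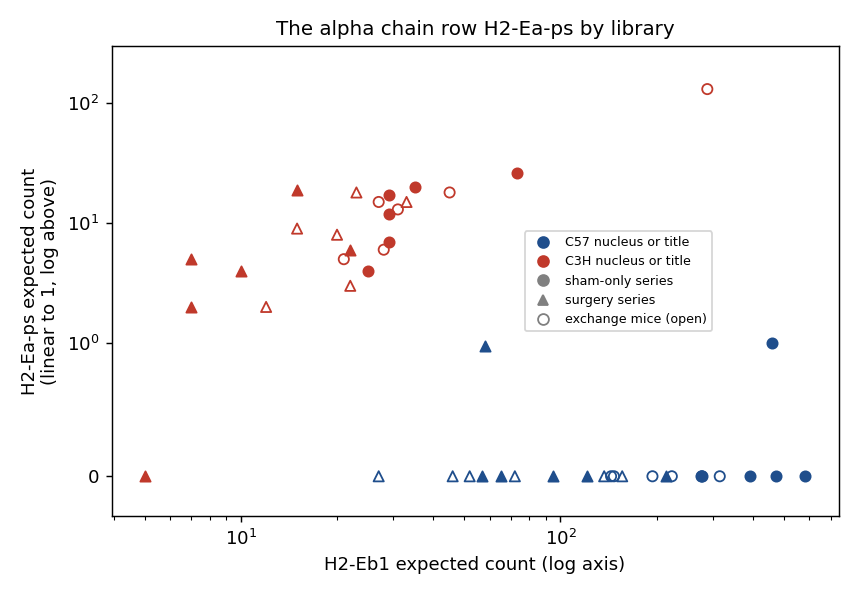
Expected counts of H2-Ea-ps (vertical axis, linear to 1 and logarithmic above) against those of H2-Eb1 (horizontal log axis) in all 48 libraries. Libraries with a C57 nucleus or title (blue) lie at 0 to 1 on the vertical axis at any H2-Eb1 count, and 23 of 24 with a C3H nucleus or title (red) lie at 2 or more.

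Grouped by title, 12 C3H libraries (C3H_wt and C3H_MNX) against 12 C57 libraries called the 6 tested genes lower, beside 21.4% of all genes called and 11.5% called lower. Cd74 ran from 1.81 to 14.4 CPM (median 3.60) under the C3H titles and from 9.51 to 51.6 CPM (median 16.5) under the C57 titles. The 2 titles did not overlap for H2-Ab1 and H2-Eb1, beside 1.19% of all genes lower without overlap. Grouped by genotype tag, 0 of the 6 were called, with log2 fold changes from -0.73 to -0.17, beside 0.00744% of all genes. At an unadjusted p below 0.05 the grouping by tag also gave 0 of the 6.

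**Figure D4:**
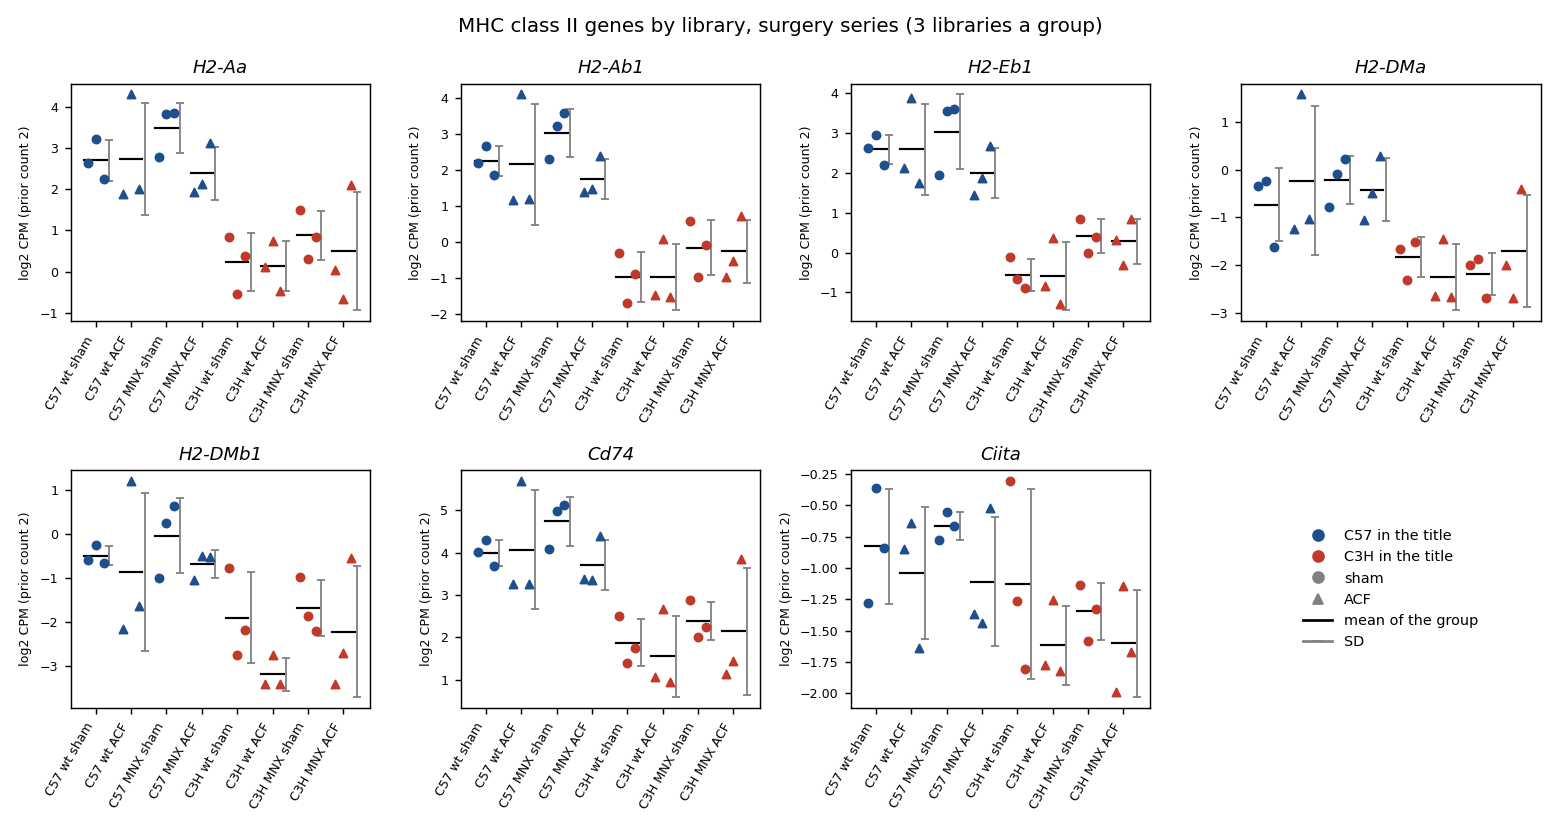
Levels of the 7 class II genes in the 24 libraries of the surgery series, as log2 CPM (vertical axis, prior count 2) by title and surgery (circles sham, triangles ACF), with the mean of the 3 libraries as a line and the SD beside it. Libraries with C57 in the title (blue) lie above all with C3H (red) for H2-Ab1 and H2-Eb1, while the other genes overlap, and C57_wt_ACF holds 1 high library, 489.

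The haplotypes differ in sequence, and the reads were mapped to mm9, a C57BL/6J assembly, so a C3H transcript of a polymorphic gene could lose reads. No C3H genome was used here and that loss was not tested. Each MHC gene was set against Cd74 of the same library, a gene that lies outside the complex on another chromosome. In the sham-only series H2-Ab1 stood -2.66 log2 units from Cd74 with the C3H nucleus (range -3.32 to -2.30, n = 12) and -1.76 with the C57 nucleus (-1.97 to -1.45, n = 12), a shift of -0.91 with no overlap. The shift was -0.85 for H2-Eb1 and -0.46 for H2-Aa (permutation test with 100000 resamples, two-sided, p = 1.00e-05 for each of the 3, the smallest p they can give, adjusted p = 3.33e-05 over 10 tests). In the wild types of the surgery series the shift was -0.85 for H2-Ab1 and -0.83 for H2-Eb1 (exact permutation test, two-sided, p = 0.00216, the smallest that 6 against 6 allows, adjusted p = 0.00433). For H2-Aa it was -0.21 there (exact p = 0.221, adjusted p = 0.221).

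Of the H2-M chains, H2-DMa shifted upward relative to Cd74, by 0.52 in the sham-only series (permutation p = 0.00884, adjusted p = 0.0126) and by 0.76 in the wild types of the surgery series (exact p = 0.00433, adjusted p = 0.00722). Both values depended on the prior count added before the logarithm: with 0.5 in place of 2 they were 0.28 and 0.43 (adjusted p = 0.187 for both, the same permutation tests). For H2-DMb1 the shift was 0.43 (permutation p = 0.0577, adjusted p = 0.0721) and 0.47 (exact p = 0.180, adjusted p = 0.200), neither past the threshold. Cd74 itself was lower with the C3H nucleus by the amounts given above.

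H2-DMb1 shares sequence with its neighbour H2-DMb2, which encodes another H2-M beta chain. Of the 1355 different stretches of 50 bases in annotated H2-DMb1 transcripts, 27.2% also occur in H2-DMb2, while the other 6 genes and H2-Ea-ps shared 0 such stretches with any other gene. RSEM divides a read that matches several transcripts between them. Among the genes that shared 0 stretches, the count was not a whole number in 8 of 48 libraries for H2-Ab1 and in 3 for Cd74. It was not whole in 2 libraries for Ciita, 2 for H2-Ea-ps and 1 for H2-Aa, and was whole in all for H2-Eb1 and H2-DMa. For H2-DMb1 it was not whole in 27 libraries, and for H2-DMb2 in 27 as well. With the 2 rows summed, a step added after the values were seen, the nuclear change in the sham-only series was -1.18 (SE 0.306, adjusted p = 0.00351) and that in the wild types of the surgery series was -1.53 (SE 0.735, adjusted p = 0.200), so the second call did not hold.

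Antigen processing and class II transcription involve many other genes. Of 24 listed 21 are in the file and 15 passed the filter, and in the sham-only series 4 were lower with the C3H nucleus and 2 higher (median log2 fold change -0.04), 6 of 15 called beside 35.7% of all genes, a share near the background. The lower ones were Rfx5, which encodes a subunit of the factor that binds the X box (-0.57, SE 0.0980, adjusted p = 4.30e-05), Creb1, whose product also binds there (-0.29), and the lysosomal proteases Ctss (-0.61), which trims the invariant chain, and Ctsl (-0.15). The higher ones were the protease Ctsb (0.22) and Ifi30 (0.45), the lysosomal thiol reductase that unfolds antigens. In the wild types of the surgery series 0 of the 15 were lower and 1, Ctsl, was higher (0.59, adjusted p = 0.0139, with 11.1% of all genes called), the opposite sign from the sham-only series.

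Interferon gamma is the classical inducer of Ciita and the class II genes. Of 12 tested genes of its pathway 4 were lower with the C3H nucleus in the sham-only series and 0 higher, again beside 35.7% of all genes called: the chemokine Cxcl9 (-3.08, SE 0.237, adjusted p = 5.41e-11), the GTPase Gbp2 (-0.93, SE 0.135, adjusted p = 4.26e-06) and the receptor chains Ifngr1 (-0.20) and Ifngr2 (-0.18). Without C3H_WT library 23 the 4 became 7. In the wild types of the surgery series 0 of 12 were called (median -0.08). Leaving out C57_wt_ACF library 489 gave 1 lower and 0 higher there (median 0.17), beside 14.2% of all genes called. Of 18 tested class I genes 2 were lower in the sham-only series, H2-D1 (-0.99, SE 0.257, adjusted p = 0.00358) and H2-Q6 (-1.40), and 3 were higher, H2-Q10 (3.35), H2-T24 (1.29) and the peptide transporter subunit Tap2 (0.59) (5 of 18 called). Without library 18 the class I genes called lower were 6 in place of 2, with 3 higher as before. In the wild types of the surgery series without library 489, 3 of 18 class I genes were higher and 0 lower (median 0.62). Class I rows share sequence with one another and differ between haplotypes, and how reads were divided between them was not tested.

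Mitochondrial strain gave no call. In the sham-only series 0 of the 7 genes were called between C3H and C57 mitochondria, beside 0% of all genes, with DESeq2 also at 0 of the 7 and 1 of all genes. All 7 log2 fold changes were below 0, from -0.93 (H2-DMb1) to -0.48 (H2-DMa), with an adjusted p of 0.914 for each. At an unadjusted p below 0.05 there were 5 of the 7, beside 549 of all genes, of which 274 (2.05% of those tested) were lower. The 5 became 1 without library 18, which has C57 mitochondria, and 0 with the pan-leukocyte mean in the fit. With the macrophage mean in the fit and by DESeq2 the count stayed at 5. It was 6 with the title code in the fit and 6 without C3Hn-C57mt library 14 or 15. Without library 18 the log2 fold change was -0.18 for Cd74 in place of -0.69, -0.32 for H2-Aa in place of -0.84 and -0.23 for H2-Ab1 in place of -0.90. On the C57 nucleus alone, where library 18 plays no part, Cd74 stood at 21.1 to 33.7 CPM in C57n-C3Hmt against 31.0 to 68.8 CPM in C57_WT (-0.83, SE 0.393, adjusted p = 0.434), and Ciita at 0 to 0.339 CPM against 0.335 to 0.465 CPM (-1.23, SE 0.532, adjusted p = 0.393). On that nucleus 0 of 14 macrophage markers were called (median -0.64), where 0% of all genes were. Summed macrophage markers ran from 45.8 to 70.9 CPM in C57n-C3Hmt against 63.8 to 145 CPM in C57_WT. The pan-leukocyte genes summed to 8.88 to 14.4 CPM against 14.8 to 25.6 CPM. Their part in the class II values was not tested. The code L8 marks all C57_WT libraries but only 2 of the 6 C57n-C3Hmt libraries. Of the 7 genes 5 had an unadjusted p below 0.05 there, beside 6.72% of all genes that were lower at that threshold, and 0 were called, beside 0%. On the C3H nucleus 0 of the 7 were called, beside 0.00747% of all genes, and 0 had an unadjusted p below 0.05, beside 3.88% of all genes that were lower, with Cd74 at -0.56 (SE 0.410, adjusted p = 0.665).

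The exchange libraries of the surgery series gave 0 calls as well. C57_MNX minus C57_wt lay between -0.13 and 0.04 for the 6 tested genes, with Cd74 at 20.9 ± 10.6 CPM (SD, n = 6) against 19.8 ± 16.0 CPM (SD, n = 6), beside 0% of all genes called. C3H_MNX minus C3H_wt lay between 0.22 and 1.46, with Cd74 at 5.83 ± 4.59 against 3.56 ± 1.88 CPM (SD, n = 6 each), beside 0.0223% of all genes. None of the 6 had an unadjusted p below 0.05 in either, beside 553 of all genes in the C57_MNX comparison and 419 in that of C3H_MNX. Of all genes tested, 2.37% were lower at that threshold in C57_MNX and 1.28% in C3H_MNX.

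ACF gave no call over the mean of the 4 titles, with 0 of the 6 tested genes beside 0.275% of all genes and 0.0744% lower. None of the 6 had an unadjusted p below 0.05, where 1524 of all genes did, 4.06% of those tested being lower, and DESeq2 also called 0 of the 6. The 0 at an unadjusted p below 0.05 became 5 with the macrophage mean or the pan-leukocyte mean in the fit, 4 without libraries 489 and 6756 and 2 without 489 alone. The log2 fold changes were -0.07 (SE 0.356) for Cd74, -0.18 (SE 0.355) for H2-Aa, -0.16 (SE 0.393) for H2-Ab1, -0.19 (SE 0.303) for H2-Eb1, 0.38 (SE 0.462) for H2-DMa and -0.93 (SE 0.590) for H2-DMb1, with adjusted p from 0.601 to 0.967. No gene had sham and ACF libraries that did not overlap in any of the 4 titles.

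Cd74 by title reads as follows. C57_wt_sham libraries stood at 16.1, 19.6 and 12.7 CPM and C57_wt_ACF libraries at 9.52, 51.6 and 9.51 CPM. In C57_MNX the sham libraries stood at 16.9, 31.9 and 35.0 CPM and the ACF libraries at 10.3, 10.2 and 21.0 CPM. C3H_wt stood at 5.55, 2.53 and 3.24 CPM after sham and at 1.98, 6.22 and 1.81 CPM after ACF, and C3H_MNX at 7.27, 3.95 and 4.62 CPM after sham and at 2.08, 2.62 and 14.4 CPM after ACF. In each of the 4 titles 2 of the 3 ACF libraries lay below every sham library, and 1 ACF library lay above at least 1 sham library. Within the single titles 0 of the 6 genes were called, beside 0%, 0%, 0% and 0.00744% of all genes in C57_wt, C3H_wt, C57_MNX and C3H_MNX, and the difference in ACF effect between C3H_wt and C57_wt called 0 of the 6, beside 0% of all genes. No gene of the 6 had an unadjusted p below 0.05 in any of these 5 comparisons, beside 2030, 951, 274, 230 and 1359 of all genes. Those that were lower at that threshold made up 3.10%, 3.85%, 1.13%, 0.632% and 6.82% of all genes tested.

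The 2 ACF libraries with the most macrophage marker transcript were also those with the most Cd74 within their titles. C57_wt_ACF library 489 had a macrophage marker mean of 4.22 log2 CPM and C3H_MNX_ACF library 6756 one of 3.31, where the other 10 ACF libraries ranged from 1.08 to 2.37. Without both, a comparison of 22 libraries, Cd74 changed with ACF by -0.77 (adjusted p = 0.0688), H2-Aa by -0.83 (adjusted p = 0.0687) and H2-DMb1 by -2.11 (SE 0.473, adjusted p = 0.0227), 1 of 6 called beside 2.55% of all genes. Both are ACF libraries high in Cd74, so leaving them out lowers the ACF value of Cd74 by construction. C57_MNX_sham library 6763, with a macrophage marker mean of 2.77, was kept. An effect of ACF cannot be told apart from this choice of libraries. With the macrophage mean in the fit of all 24, H2-DMb1 (-1.75, SE 0.348, adjusted p = 0.0151) and Cd74 (-0.59, SE 0.140, adjusted p = 0.0394) were called lower, beside 1.37% of all genes, and with the pan-leukocyte mean 0 were, with Cd74 at -0.56 (adjusted p = 0.129). With the H2-DMb2 row added, H2-DMb1 changed by -0.10 (SE 0.503, adjusted p = 0.969) over all 24 libraries. Of the macrophage markers 0 of 14 were called with ACF (median 0.42, and 0.03 without library 489).

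The relation of the members to the macrophage markers differed in strength between genes and sets of libraries. Pearson's r with the macrophage marker mean was computed for 7 genes in 4 sets of 12 libraries, 28 relations in all, of which 18 passed at an adjusted p below 0.05 (permutation test with 100000 resamples, two-sided) and 24 did by Spearman's rho. The 18 comprised the 6 genes other than Ciita in each of 3 sets, and with the C3H nucleus of the sham-only series 0 of 7 passed by Pearson's r, with H2-DMb1 at -0.03 and H2-Aa at 0.298. Without the 2 libraries farthest from the median marker level, r fell for some of the 18 and rose for others. It fell from 0.694 to 0.336 for H2-Eb1 under the C57 titles. Under the C3H titles it fell from 0.828 to 0.419 for H2-DMa and rose from 0.723 to 0.911 for H2-DMb1. Ciita passed in 0 of the 4 sets by Pearson's r. By rho, with the same permutation test, Ciita passed with the C3H nucleus (0.783, adjusted p = 0.00849). It also passed by rho under the C3H titles (0.615, adjusted p = 0.0427) and the C57 titles (0.629, adjusted p = 0.0398), but not with the C57 nucleus (0.510, adjusted p = 0.102). With the C3H nucleus H2-Aa, H2-Ab1, H2-Eb1 and Cd74 passed by rho too, while H2-DMa and H2-DMb1 did not. H2-DMa did not pass by rho under the C3H titles either (0.503, adjusted p = 0.102, the same permutation test). For Cd74 with the C57 nucleus r was 0.910 (permutation p = 2.00e-05, adjusted 0.000187) and rho was 0.853 (p = 0.000790, adjusted 0.00448), and r was 0.839 without the 2 libraries farthest from the median. With the C3H nucleus r was 0.452 (permutation p = 0.129, adjusted 0.172) and rho was 0.839 (p = 0.00128, adjusted 0.00448), and r without the 2 farthest libraries was 0.701. In the surgery series r was 0.903 under the C3H titles (permutation p = 1.00e-05, adjusted 0.000140, rho 0.902, p = 0.000150, adjusted 0.00266) and 0.919 without the 2 farthest. Under the C57 titles r was 0.800 (permutation p = 0.000540, adjusted 0.00154, rho 0.811, p = 0.00208, adjusted 0.00647) and fell to 0.564 without libraries 489 and 6763. Within the single groups of 6 of the sham-only series r for Cd74 was 0.887 in C57_WT, 0.828 in C57n-C3Hmt, 0.811 in C3Hn-C57mt and 0.411 in C3H_WT. Other genes went the other way in some groups, H2-DMb1 with -0.792 and H2-Aa with -0.06 in C3H_WT, H2-DMb1 with -0.240 and Ciita with -0.689 in C57n-C3Hmt, and Ciita with -0.08 in C57_WT.

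**Figure D5:**
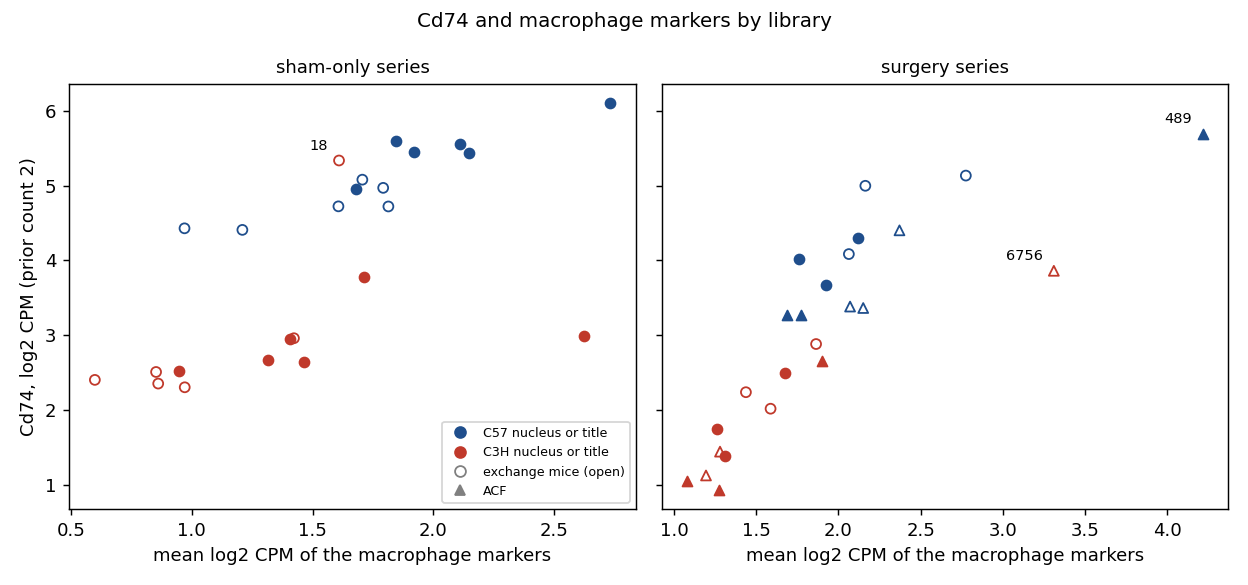
Cd74 (vertical axis, log2 CPM, prior count 2) against the mean log2 CPM of 14 macrophage markers (horizontal axis) in the sham-only series (left) and the surgery series (right). In both panels the C57 libraries (blue) lie above the C3H libraries (red) at like marker levels, other than library 18, and in the surgery series libraries 489 and 6756 lie at the right end.

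The members also followed one another. With the C57 nucleus the correlation with Cd74 over 12 libraries was 0.969 for H2-Aa, 0.957 for H2-Ab1, 0.947 for H2-Eb1, 0.738 for H2-DMa, 0.800 for H2-DMb1 and 0.342 for Ciita, given as a description since the genes share each library's depth and cell content. Ciita was the weakest of the 6 under the C57 nucleus and in both sets of titles, at 0.358 under the C3H titles and 0.681 under the C57 titles, and with the C3H nucleus it was 0.841. Among 8880 genes with a mean of at least 2 log2 CPM in both series, those whose deviations from their group means were most like those of Cd74 were B2m, H2-D1 and H2-K1, with r of 0.880, 0.878 and 0.876 in the series where it was lower. H2-T9, H2-Q4, H2-T23, Tmem140 and Tap1 came next, from 0.796 to 0.763. Without library 18 the r in the sham-only series was 0.651 for B2m, 0.617 for H2-D1, 0.643 for H2-K1 and 0.384 for Tmem140. B2m is the class I light chain and H2-D1 and H2-K1 are heavy chains, and the size of their r in the sham-only series depended on library 18. Without it, among the 20 genes most like Cd74 in all libraries, the macrophage genes Maf (0.668) and C1qb (0.653) had the highest r in that series. B2m and H2-K1 were close behind them, and genes outside those 20 were not compared without library 18.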

How the data were processed

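Per the submitters' processing notes, reads were handled with CASAVA 1.8.2, Bowtie and RSEM 1.2.0 on mm9, and the labels' protocol names a stranded mRNA kit, the provider's own mapping algorithm and DESeq2. The deposited values are the authors' expected counts per gene (13.9% of values were not whole), rounded here. Groups came from the titles. The tests used edgeR 4.0.16 in R 4.3.3 (TMM, filterByExpr, quasi-likelihood F test, 1 fit per series over all of its libraries, SE from the F statistic, Benjamini-Hochberg adjustment over all genes tested, threshold 0.05), with DESeq2 1.42.0 as an alternative. Intervals of 95% are normal. Levels are CPM with 1 TMM scaling over 48 libraries and log2 CPM uses a prior count of 2. No replicate pair differed by less than sampling noise. The tests were checked on simulated counts. Members and gene lists were chosen with earlier results of these data known, and named genes were the members, the called genes of each list and the 8 genes most like Cd74. Alternatives were other scaling, no filter, marker means or title code as terms, and left-out libraries. Promoter sequences are from RefSeq, GRCm38.p6, and transcripts for shared stretches from GENCODE.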

Additional observations from a re-analysis of the deposited data

Results flagged for a closer look

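In the 4 groups of 6 of the sham-only series, each of the 7 genes was checked for a library far from the other 5 of its group, and 9 of 28 checks found one, where chance gives about 1 in 20. Library 18 of C3Hn-C57mt was far above its group in log2 CPM of H2-Aa (3.59, next 1.45), H2-Ab1 (3.03, next 0.52), H2-Eb1 (3.06, next 0.68) and Cd74 (5.34, next 2.96). Library 21 of C3H_WT was far above its group in H2-Aa (1.77, next 1.05), H2-Eb1 (1.38, next 0.40) and Cd74 (3.77, next 2.99). Library 10 of C57n-C3Hmt was low in H2-Ab1 (2.46, next 2.93), and library 23 of C3H_WT was low in H2-DMb1 (-2.60, next -1.82) on 2 counts. Genes of 1 library are not independent checks.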

How the results depend on the processing

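The nuclear comparison of the sham-only series kept 6 calls under every alternative run and with each library left out in turn, and that of the wild types of the surgery series kept 4 to 6, with 0 when the exchange libraries were added by genotype tag. Of all genes, 10.4% to 39.1% were called between nuclei under these settings. For the wild types the share ran from 6.79% to 21.4%, and by genotype tag it was 0.00744%. The count for ACF over the 4 titles was 0 and became 2 with the macrophage mean in the fit and 1 without libraries 489 and 6756; the cause was not tested. The sign turned for Ciita between nuclei (0.066 with the macrophage mean, 0.25 with the pan-leukocyte mean, -0.26 to 0.0088 with single libraries left out) and for H2-DMa with ACF (-0.18 and -0.14 with those means, -0.37 without both libraries, -0.059 to 0.50 with single libraries left out). It also turned for Cd74 with ACF (-0.44 to 0.030 with single libraries left out) and for H2-DMb1 against Cd74 in the wild types (-0.37 with a prior count of 0.5). These values were not past the threshold under those settings. Counts over all genes moved by more than 1.5 times for ACF (37, against 184 and 159 with the marker means, 344 without both libraries, 244 by DESeq2 and 12 to 174 with single libraries left out) and for the nucleus (4776, against 1399 with the title code and 3014 with the pan-leukocyte mean in the fit). For mitochondria the count was 0, against 3 with the title code and 1 by DESeq2. Wild types gave 1497 against 2295 without both libraries and 2344 with the pan-leukocyte mean. No paired analysis was possible because the groups share no replicate numbers. H2-DMa, H2-DMb1 and Ciita rest on few counts, which limits their precision.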
